A study of Mus musculus with 24 samples.

Results

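The H2 complex is the major histocompatibility complex (MHC) of the mouse, and its genes were measured here by bulk RNAseq in the olfactory epithelium (OE) of WT and iRhom2-/- mice. Members were chosen by name alone, as every gene whose symbol starts with H2-, with B2m, Cd74 and Ciita beside them. This gave 48 of the 45706 genes in the table, 45 of them with H2- symbols. All 45 lie on chromosome 17 of GRCm38, between positions 33974659 and 37483552, and B2m, Cd74 and Ciita lie on other chromosomes. The question was whether the levels of these genes differed by genotype, or whether they followed something that varied between mice within a genotype, since the mice were bred on a mixed background in which alleles in and near the complex could differ.

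The 24 mice were untreated, on a mixed 129Sv/C57BL/6 background, and were either WT or homozygous for the Rhbdf2 tm1b(KOMP)Wtsi allele, which is called iRhom2-/- here. That allele places LacZ under the gene's own promoter and still transcribes the leading exons of the gene, so that Rhbdf2 was at 7.19 to 13.4 counts scaled to library size (CPM) in iRhom2-/- mice and at 19.3 to 24.95 CPM in WT mice, with no overlap. There were 3 mice of each genotype at 8 weeks, 3 at 10 weeks and 6 of each genotype in a set that holds mice of 5 and of 30 weeks, all male except mouse 3 of both genotypes at 10 weeks and WT mouse 3 at 8 weeks. In this last set the names of the columns do not say which mouse was of which age, so that these ages are pooled as 5 or 30 weeks, and its mice carry the numbers 7 to 12 of their columns. The labels of the mice of 5 and 30 weeks share a core reference number. Between the sets, age and the handling of a set cannot be told apart. The deposited strain label does not give the H2 haplotype of any mouse.

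Class I molecules of the MHC are made by nearly every nucleated cell and present peptides from inside the cell to T cells, with β2-microglobulin, the product of B2m, as their invariant partner. Class II molecules are made mainly by dendritic cells, macrophages and B cells, and present peptides taken up from outside. Ciita encodes the master regulator of class II transcription, and Cd74 the invariant chain that occupies the class II groove until H2-DM exchanges it for peptide, a step that H2-DO restrains. Interferons raise both classes. The classical genes are among the most variable genes between mouse strains, and strains differ in which of the genes of the Q and T regions they carry. Both 129 strains and C57BL/6 are usually typed as H2b for the classical genes. In the nose, the H2-M10 family is best known from sensory neurons of the vomeronasal organ.

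Promoter sequences are shown first because some of the members described below carry motifs known from MHC promoters, though others described with them do not. The 200 bases before the RefSeq start of the gene (GRCm38.p6) were searched on both strands for the enhancer A core GGGGATTCC, the interferon response motif GAANNGAAA, the X box CTAGCAAC and the Y box ATTGG, and no match of one overlapped another in the sequences printed. Capitals mark the matches, in which a match on the other strand appears as its complement. The first group are class I genes, H2-K1 (chr17:34000348-34000547, minus strand), H2-D1 (chr17:35262894-35263093, plus strand) and H2-Q7 (chr17:35438955-35439154, plus strand).
H2-K1: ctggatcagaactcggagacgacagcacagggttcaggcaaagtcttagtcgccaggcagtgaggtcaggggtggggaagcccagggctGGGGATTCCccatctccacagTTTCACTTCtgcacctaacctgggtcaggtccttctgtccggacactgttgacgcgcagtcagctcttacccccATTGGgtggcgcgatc
H2-D1: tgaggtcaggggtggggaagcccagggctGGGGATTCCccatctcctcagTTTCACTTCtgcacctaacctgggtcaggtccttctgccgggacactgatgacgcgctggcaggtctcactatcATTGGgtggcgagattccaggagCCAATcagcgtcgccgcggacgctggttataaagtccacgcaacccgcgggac
H2-Q7: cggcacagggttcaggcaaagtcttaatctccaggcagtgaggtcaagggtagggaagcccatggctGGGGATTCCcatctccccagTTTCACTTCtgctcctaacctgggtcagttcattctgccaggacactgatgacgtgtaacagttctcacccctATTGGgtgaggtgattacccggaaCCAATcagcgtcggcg

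The enhancer A core was found in 51 of 32851 promoters of the mouse genome (0.155%) and the interferon response motif in 5.00%. Both stood together in 6 promoter windows (0.0183%), of which 5 belonged to H2-K1 (with 2 start sites), H2-D1, H2-Q6 and H2-Q7, and the other to R3hdm2. Matches are descriptions of letters, and these promoters are close copies of each other. The second group are class II genes, H2-Eb1 (chr17:34305667-34305866, plus strand) and H2-Ob (chr17:34238705-34238904, plus strand). They are set beside H2-Ke6 (chr17:34028056-34028255, minus strand), whose coefficient of variation, given below, was the lowest of the tested members.
H2-Eb1: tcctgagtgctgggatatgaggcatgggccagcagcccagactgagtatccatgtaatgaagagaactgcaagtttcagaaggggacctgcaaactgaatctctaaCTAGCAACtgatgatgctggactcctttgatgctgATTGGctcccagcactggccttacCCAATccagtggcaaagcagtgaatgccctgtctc
H2-Ob: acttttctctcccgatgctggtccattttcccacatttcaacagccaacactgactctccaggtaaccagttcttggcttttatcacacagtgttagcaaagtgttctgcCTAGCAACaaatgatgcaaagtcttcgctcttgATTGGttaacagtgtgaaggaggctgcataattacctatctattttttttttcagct
H2-Ke6: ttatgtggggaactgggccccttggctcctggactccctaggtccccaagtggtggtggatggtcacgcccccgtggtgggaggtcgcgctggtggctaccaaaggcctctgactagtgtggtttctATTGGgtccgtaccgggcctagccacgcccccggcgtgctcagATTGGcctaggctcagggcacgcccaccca

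An X box and a Y box stood together in 98 promoters (0.298%), among them those of H2-Eb1, H2-Ob and H2-Eb2, while H2-Ke6 held neither an X box, an enhancer A core nor an interferon response motif in this window. In H2-Eb1 and H2-Ob the X box stood farther from the start than the Y box. In H2-Eb2 the order was reversed, with the X box 12 and the Y box 100 bases before the start. Promoters were on hand for 33 of the 48 members, and the Y box alone, in 29.3% of all promoters, was in 29 of those 33. The enhancer A core was in 4 of them, the interferon response motif in 8 and the X box in 3. Like H2-Ke6, the class II genes H2-Aa, H2-DMa, H2-DMb1, H2-DMb2 and H2-Oa had no match of the X box, and B2m, H2-T22 and H2-T23 had none of the enhancer A core or the interferon response motif.

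Library totals ranged from 25333822 to 48660394 counts, and the normalization factors from 0.785, in iRhom2-/- mouse 2 of 10 weeks, in which 13.6% of all counts fell on the gland gene Bpifb9b, to 1.09. Of the 48 members, 35 had enough counts to be tested. The other 13 never exceeded 19 counts in a mouse, and 4 of them (H2-Ea, H2-Q3, H2-Pa and H2-M10.5-ps1) were at 0 in all 24 mice. The 9 that had a count in some mouse were H2-T3, H2-M1, H2-M9, H2-M11, H2-M10.1, H2-M10.2, H2-M10.4, H2-M6-ps and H2-Pb. H2-Ea encodes a class II α chain that strains of the H2b haplotype do not make, and it is annotated in GRCm38, which is a C57BL/6 genome, as a polymorphic pseudogene. No mouse thus gave a sign of an expressed H2-Ea allele at this depth, at which 3 counts, the limit that a count of 0 allows, are at most 0.112 CPM. Per length of exon (CPM divided by the length in kilobases), the median over 24 mice was highest for B2m (169) and Cd74 (108), followed by H2-D1 (67.2) and H2-K1 (62.1), by H2-Eb1 (34.9), H2-Ke6 (28.7), H2-Ab1 (25.1) and H2-Aa (17.6), and by the non-classical H2-T23 (15.9). The ranges over mice of neighbours in that order overlapped, as those of H2-D1 (43.3 to 307) and H2-K1 (34.1 to 384) did.

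**Figure D1:**
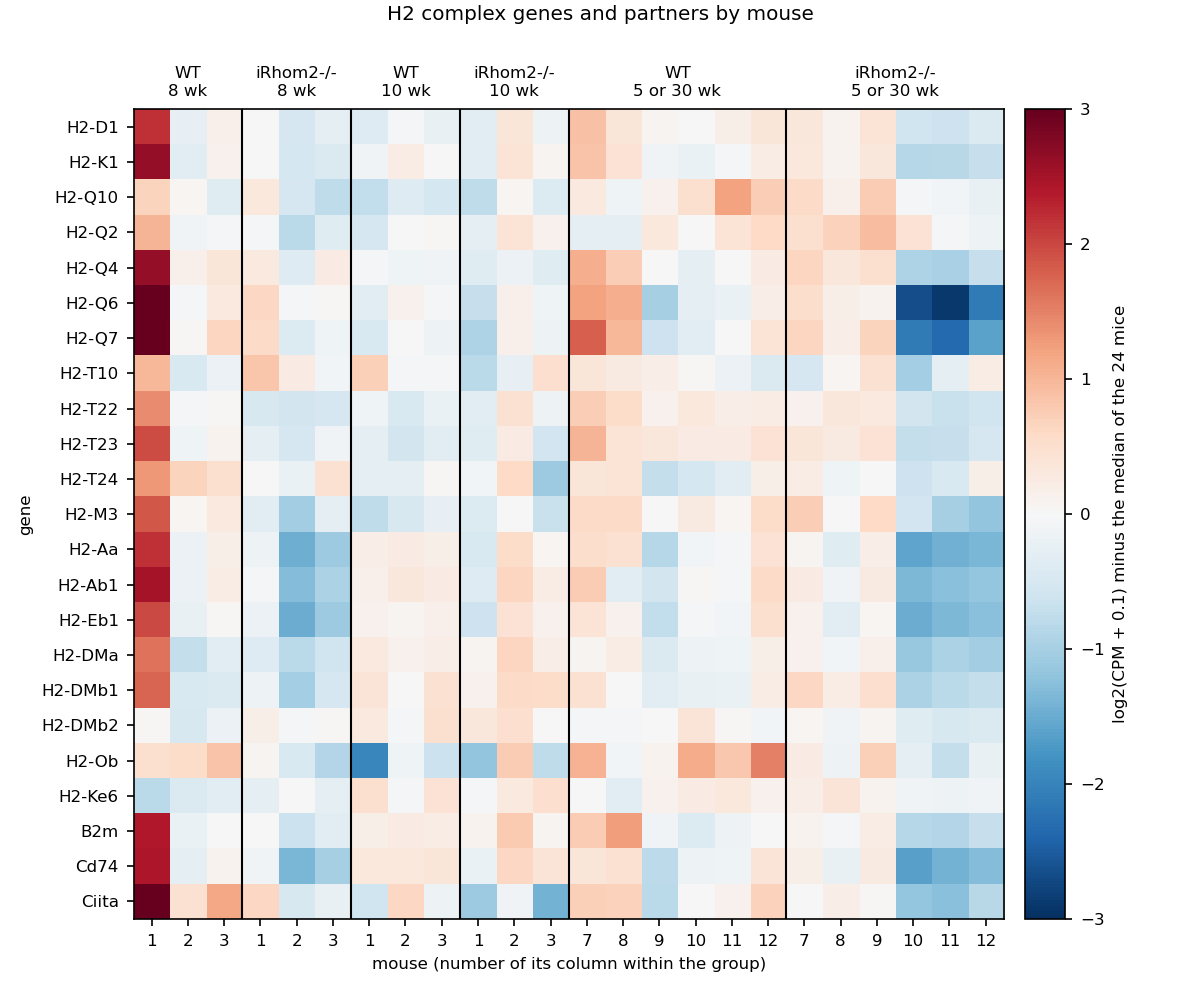
Level of each tested member in each of the 24 mice, as the difference of log2(CPM + 0.1) from the median over all mice, for the 23 tested members with a median of at least 1 CPM. Columns are mice by set and genotype and rows are genes by class, and WT mouse 1 of 8 weeks stands out as a column of high values, which had the highest level of 24 of all 35 tested members.

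For most members a single mouse stood apart from the rest, while the genotypes overlapped. H2-K1, a classical class I gene, was at 1128, 146 and 200 CPM in WT mice 1 to 3 of 8 weeks and at 183, 126 and 136 CPM in the iRhom2-/- mice of that age. At 10 weeks it was at 168, 211 and 182 CPM in WT and at 146, 241 and 195 CPM in iRhom2-/- mice. In the 5 or 30 week set its lowest, median and highest levels were 160, 194 and 331 CPM in WT and 100.2, 155 and 232 CPM in iRhom2-/- mice. The genotypes thus overlapped in every set, and WT mouse 1 of 8 weeks was 3.41 times above the next highest of all 24.

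H2-D1, the other classical class I gene, had the same order of mice within the groups of 8 and 10 weeks, with 792, 145 and 192 CPM in WT against 174, 122 and 140 CPM in iRhom2-/- mice at 8 weeks. At 10 weeks its levels were 133, 168 and 149 CPM in WT and 138, 222 and 156 CPM in iRhom2-/- mice, and over the 5 or 30 week set they ran from 173 to 318 CPM (median 209.9) and from 112 to 229 CPM (median 157). B2m, whose gene lies on another chromosome, was at 775, 127 and 144 CPM in WT and at 143, 92.9 and 116 CPM in iRhom2-/- mice at 8 weeks. WT mouse 1 of 8 weeks was again alone, and the other mice of that age overlapped.

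The class II α chain gene H2-Aa was at 305, 58.9 and 74.8 CPM in WT and at 59.9, 24.1 and 31.0 CPM in iRhom2-/- mice at 8 weeks. It was at 76.4, 79.5 and 75.6 CPM in WT and at 48.9, 97.9 and 69.4 CPM in iRhom2-/- mice at 10 weeks. In the 5 or 30 week set it ran from 36.5 to 95.9 CPM (median 76.8) in WT and from 22.1 to 76.5 CPM (median 38.7) in iRhom2-/- mice. Only at 10 weeks did the 3 WT mice lie within a narrow range, and the iRhom2-/- mice fell on both sides of it. Cd74 followed, with 981, 147 and 194 CPM in WT and 169, 70.5 and 90.6 CPM in iRhom2-/- mice at 8 weeks, and 224, 225 and 234 CPM against 159, 278 and 237 CPM at 10 weeks.

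Ciita was low in all mice. At 8 weeks it was at 21.0, 3.51 and 5.80 CPM in WT and at 3.94, 1.79 and 2.16 CPM in iRhom2-/- mice, and at 10 weeks at 1.64, 4.00 and 2.27 CPM and at 1.14, 2.37 and 0.899 CPM. Its lowest, median and highest levels at 5 or 30 weeks were 1.41, 3.47 and 4.24 CPM in WT and 1.00, 1.96 and 2.96 CPM in iRhom2-/- mice. The iRhom2-/- group had the lower median in each set, and the genotypes overlapped in each.

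Non-classical class I genes of the Q region, include the Qa-2 genes H2-Q6 and H2-Q7, in which that mouse also stood apart. H2-Q6 was at 85.2, 7.34 and 9.35 CPM in WT and at 11.7, 7.28 and 7.81 CPM in iRhom2-/- mice at 8 weeks, and at 6.04, 8.28 and 7.36 CPM and at 4.67, 8.38 and 6.94 CPM at 10 weeks. At 5 or 30 weeks it ran from 3.76 to 17.6 CPM (median 7.67) in WT and from 0.933 to 11.0 CPM (median 4.90) in iRhom2-/- mice. WT mouse 1 of 8 weeks was 4.85 times above the next of the 24 mice. H2-Q4 followed, at 124, 22.1 and 25.5 CPM in WT and at 24.3, 15.1 and 23.2 CPM in iRhom2-/- mice at 8 weeks. H2-Q2, in contrast, had its highest level in the same mouse by a factor of only 1.07, and H2-Q10, which is known as a secreted class I gene of the liver, had it in WT mouse 11 of 5 or 30 weeks (2.50 CPM).

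In the T region, H2-T23 was at 178, 41.9 and 49.04 CPM in WT and at 38.0, 32.3 and 42.8 CPM in iRhom2-/- mice at 8 weeks, and ran from 54.4 to 92.6 CPM (median 59.1) and from 28.0 to 61.8 CPM (median 43.9) at 5 or 30 weeks. The genotypes overlapped in both. Of the genes that load peptide on class II, H2-DMa was at 41.1, 7.91 and 10.4 CPM in WT and at 10.1, 7.44 and 8.61 CPM in iRhom2-/- mice at 8 weeks, and H2-DMb1 at 45.5, 9.76 and 10.1 CPM and at 12.2, 6.64 and 9.45 CPM. H2-DMb2, their neighbour, did not share this pattern, with 16.8, 11.7 and 14.4 CPM in WT and 18.3, 15.8 and 16.7 CPM in iRhom2-/- mice. Of the H2-DO chains, H2-Oa was at 1.79, 0.661 and 1.22 CPM in WT and at 0.767, 0.527 and 0.592 CPM in iRhom2-/- mice.

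**Figure D2:**
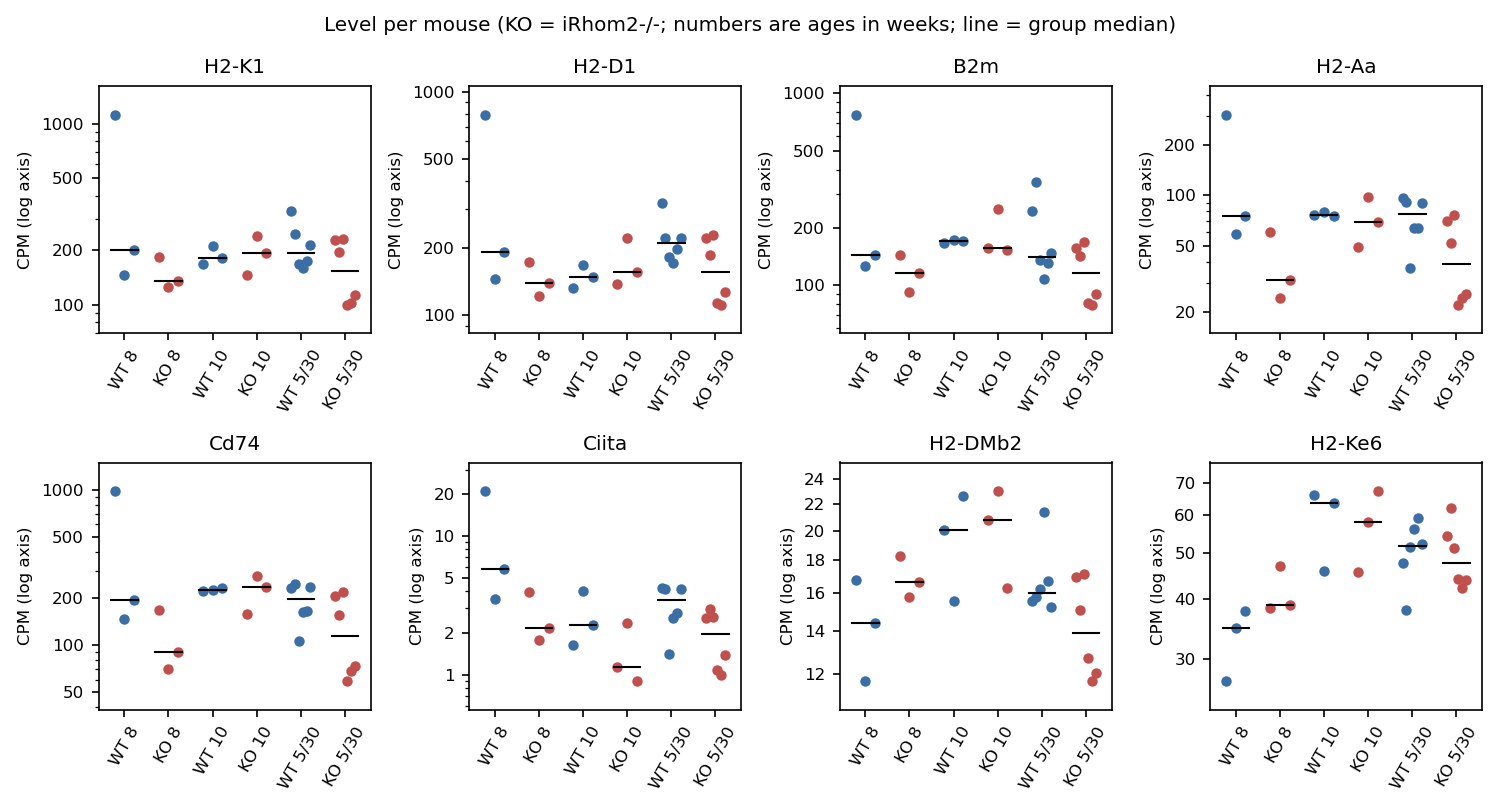
Levels of named members in each mouse, in CPM on a log axis, with 1 point per mouse by set and genotype and a line at the median of the group. H2-K1 in WT mouse 1 of 8 weeks, at 1128 CPM, lies above the 331 CPM of the next mouse, while H2-Ke6 stays between 27.0 and 67.2 CPM.

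The count of members highest in 1 mouse can be set beside that for all genes. WT mouse 1 of 8 weeks had the highest level of 24 of the 35 tested members and of 9.46% of all 20763 genes tested. When the mice were put in order for each gene, the largest gap between neighbours stood just below the highest mouse for 22 of 35 members (62.9%) and for 17.5% of all genes. At the other end, 20 of 35 members were lowest in iRhom2-/- mouse 10, 11 or 12 of the 5 or 30 week set, as were 7.72% of all genes. These mice were also below iRhom2-/- mice 7, 8 and 9 of their group, a split noticed after the values were seen. H2-K1 was at 228, 196 and 232 CPM in mice 7 to 9 and at 100.2, 102 and 114 CPM in mice 10 to 12, and H2-Q6 at 11.0, 8.61 and 8.15 CPM and at 1.12, 0.933 and 1.65 CPM. In all, 28 of 35 members (80%) were lower in each of mice 10 to 12 than in each of mice 7 to 9, as were 19.7% of all genes. Whether these mice differed in age cannot be told from the names of the columns. The sample labels number the iRhom2-/- mice of 5 weeks from 7 to 9 and those of 30 weeks from 10 to 12. The WT labels of this set carry other numbers than the WT columns, so label numbers were not used to assign ages.

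The spread within groups was wide for nearly all members. The biological coefficient of variation within groups had a median of 0.474 over the members and 0.189 over all genes, and 33 of 35 members were above the latter. H2-DMb2 (0.169) and H2-Ke6 (0.160), which encodes a hydroxysteroid dehydrogenase and not an MHC molecule, were the others.

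High levels in WT mouse 1 of 8 weeks came with high levels of immune genes, listed beside the members. The 15 interferon response genes summed to 674 CPM in that mouse and to at most 416 CPM in any other, the macrophage genes to 329 CPM (at most 269.8 elsewhere), the T and NK cell genes to 46.5 CPM (at most 17.8) and the B cell genes to 33.8 CPM (at most 22.5). In the 5 or 30 week set the interferon sums of WT mice ran from 117 to 416 CPM and those of iRhom2-/- mice from 81.2 to 163 CPM. The dendritic cell genes summed to 34.2 to 40.6 CPM in the WT and 35.2 to 41.1 CPM in the iRhom2-/- mice of 8 weeks, a sum to which Zbtb46 gave the most (median 22.1 CPM over all mice). At 8 weeks 7 of these 8 genes had lower levels in iRhom2-/- mice, with a median log2 difference of -1.02, and of the 8 Itgax fell and Zbtb46 rose. Without WT mouse 1 the adjusted p of Itgax by edgeR's quasi-likelihood test was 0.147, and that of Zbtb46 was 0.0522. In whole tissue, more cells of a type and more RNA per cell cannot be told apart, and the part of these cells in the members' levels was not tested. Markers of olfactory sensory neurons were present at 8466 to 16184 CPM summed over 6 genes in every mouse, as the label of the tissue has it. At 8 weeks their sum was lower in the WT mice (8466 to 10678 CPM) than in the iRhom2-/- mice (12629 to 16184 CPM), without overlap.

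The comparison of genotypes over all sets, with the set as a term in edgeR's quasi-likelihood test, asks for a shift that is shared by 12 WT and 12 iRhom2-/- mice. Ciita fell by 1.07 on the log2 scale (SE 0.30, 95% interval -1.67 to -0.48, adjusted p = 0.0930), to 0.475 times the WT level. It was the only one of the 35 tested members to pass the threshold of 0.1, where 1.97% of all genes tested did (233 higher and 177 lower in iRhom2-/- mice). Leaving out WT mouse 1 of 8 weeks, its difference was -0.78 (adjusted p = 0.149), and no member passed. Over all alternatives its adjusted p ran from 0.0181 (DESeq2) to 0.275 (the mice of 8 and 10 weeks alone), and its difference was negative in each. The log2 differences of 30 of the 35 members were negative, with a median of -0.53, against 50.3% of all genes and a median of -0.00. At an unadjusted p under 0.05 there were 19 members, all lower in iRhom2-/- mice, and 6 when that WT mouse was left out, with a median over the members of -0.31. Of all genes, 2573 of 20763 had such a p, and 2360 of 21157 without that mouse.

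By role, none of the class II chains passed the threshold. All 4 tested chains had p under 0.05, namely H2-Aa with a log2 difference of -0.85 (SE 0.30, adjusted p = 0.208), H2-Eb1 with -0.78 (SE 0.28, adjusted p = 0.217), H2-Ab1 with -0.77 (SE 0.32, adjusted p = 0.304) and H2-Eb2, which was under 3.4 CPM in all mice, with -1.77 (SE 0.61, adjusted p = 0.198). Cd74, their invariant chain, differed by -0.77 (SE 0.32, adjusted p = 0.305). Of the H2-DM genes, the differences were -0.44 for H2-DMa (SE 0.23, adjusted p = 0.463), -0.29 for H2-DMb1 (SE 0.26, adjusted p = 0.718) and -0.05 for H2-DMb2 (SE 0.10, adjusted p = 0.905). The H2-DO chains differed by -0.53 for H2-Oa (SE 0.22, adjusted p = 0.298) and by -0.58 for H2-Ob (SE 0.29, adjusted p = 0.437). The annotated locus of H2-DMa overlaps CR974462.3 on the same strand by 591 bases, and Brd2 on the other strand by 3094 bases. Its counts are less certain for the overlap on its own strand. The interval of H2-DMb2, from -0.23 to 0.14, leaves no room for a difference of the size of that of Ciita.

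Of the classical class I genes and their partner, none passed the threshold. H2-K1 differed by -0.62 (SE 0.29, adjusted p = 0.379), H2-D1 by -0.50 (SE 0.24, adjusted p = 0.397) and B2m by -0.67 (SE 0.28, adjusted p = 0.309). Among genes of the Q region, 6 of 7 tested had negative differences and 4 had p under 0.05, with H2-Q7 (0.500 times the WT level, adjusted p = 0.336) and H2-Q6 (0.507 times, adjusted p = 0.354) farthest from the WT level. These genes are near copies of one another, and reads could have been split between them by the authors' counting. In the T region the counts were 4 of 5 and 2, with H2-T23, which encodes Qa-1, at -0.53 (SE 0.22) and H2-T22, a ligand of γδ T cells, at -0.46 (SE 0.19). H2-M3, which presents formylated peptides, was at -0.56 (SE 0.26). H2-Ke6 differed by 0.05 (95% interval -0.12 to 0.23). Its annotated locus overlaps Gm20427 on the same strand by 2027 bases, so its counts are less certain too.

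The genes of the M10 family were expressed at low levels, with sums over the family of 0.197 to 8.46 CPM. H2-M10.3, the highest of them, was at 0.283, 2.17 and 1.05 CPM in WT and at 0.187, 0.780 and 0.387 CPM in iRhom2-/- mice at 8 weeks, and so was low in the WT mouse that was highest for most members. Over all sets its difference was -1.10 (SE 0.51, adjusted p = 0.380). Of 6 vomeronasal markers only Trpc2 had enough counts to be tested, and their sum was at most 3.19 CPM in any mouse. Whether M10 counts came from vomeronasal tissue was not tested.

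**Figure D3:**
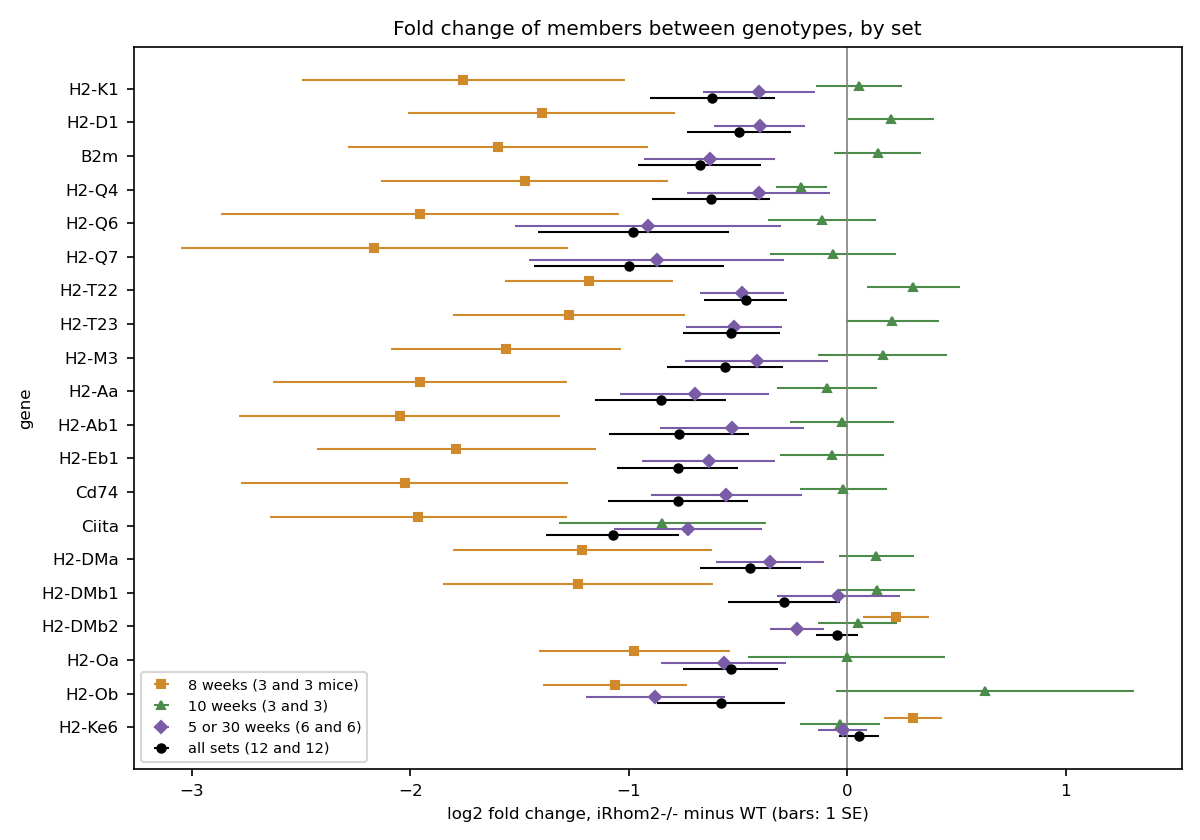
Log2 difference between iRhom2-/- and WT mice for a chosen part of the tested members, over all sets and in each set, with bars that show the SE from the fit. Counted over all tested members, drawn or not, 30 of 35 lie below 0 over all sets, 26 of 30 at 8 weeks, 14 of 28 at 10 weeks and 28 of 30 at 5 or 30 weeks.

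The sets gave different pictures when fitted alone. At 8 weeks the median log2 difference of the members was -1.39, with 26 of 30 below 0. None passed the threshold, while 4.98% of all genes did. At p under 0.05 there were 3827 of 19335 genes and 14 of the 30 members. DESeq2 called 3 of the 30 (H2-Eb2, H2-M3 and H2-Ob), where it called 1172 of the 19335 genes higher and 1023 lower. The likelihood ratio test of edgeR called 7 members, where it called 565 genes higher and 490 lower. Without WT mouse 1 the median was -0.31. In that fit 3597 of 19769 genes and 5 of 31 members had p under 0.05. Past the threshold were 398 genes higher and 324 lower, and 1 member. This was H2-T22, at 81.4, 29.7 and 30.8 CPM in WT and at 21.7, 20.6 and 21.2 CPM in iRhom2-/- mice, so that the genotypes did not overlap, with that mouse or without it. Its log2 difference was -1.18 (SE 0.38, adjusted p = 0.158) with all 6 mice and -0.53 (adjusted p = 0.0295) with 5, and its adjusted p over all alternatives ran from there to 0.373.

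Every iRhom2-/- mouse of 8 weeks was below every WT mouse for 5 of 30 members, namely H2-T22, H2-T24, H2-M2, H2-M3 and H2-Ob, as it was for 10.6% of all genes. H2-M3 was at 10.7, 2.99 and 3.51 CPM in WT and at 2.26, 1.33 and 2.32 CPM in iRhom2-/- mice. H2-Ob, a chain of the H2-DO molecule that is made mostly by B cells, was at 2.18, 2.30 and 2.85 CPM in WT and at 1.64, 1.10 and 0.797 CPM in iRhom2-/- mice. In H2-Ob, unlike in most members, WT mouse 1 was the lowest of the 3 WT mice. H2-Ke6 alone was above WT in every iRhom2-/- mouse, with 27.0, 34.9 and 37.8 CPM in WT and 38.5, 46.8 and 38.9 CPM in iRhom2-/- mice (log2 difference 0.30, SE 0.13, adjusted p = 0.269). The share of all genes above WT in every iRhom2-/- mouse was not counted, so this order is not read as particular to H2-Ke6.

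At 10 weeks the members' differences were on both sides of 0, with a median of 0.02 and 14 of 28 below 0. None passed the threshold, which 0.197% of all genes did. At p under 0.05 there were 1461 of 18764 genes and 1 member. That member was H2-M10.3, at 1.38, 1.87 and 1.70 CPM in WT and at 1.32, 0.667 and 0.589 CPM in iRhom2-/- mice (log2 difference -0.94, SE 0.38, adjusted p = 0.619). It and H2-Q4 were the only members for which every iRhom2-/- mouse was below every WT mouse, against 6.44% of all genes. DESeq2 and the likelihood ratio test called 0 members at this age. The direction of the median rested on single mice. It was 0.17 without iRhom2-/- mouse 1 and -0.24 without iRhom2-/- mouse 2, which was the highest of its group for H2-K1, H2-D1, B2m, H2-Aa, Cd74 and Ciita and is the library dominated by Bpifb9b.

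In the 5 or 30 week set 28 of 30 members were below 0 in iRhom2-/- mice, with a median of -0.45. None passed the threshold, which 1.07% of all genes did, and the genotypes overlapped for all 30, while every iRhom2-/- mouse was below every WT mouse for 0.666% of all genes. At p under 0.05 there were 2616 of 18481 genes and 3 of 30 members, so the members named next are no more than the share over all genes. These were H2-Ob (-0.88, SE 0.32, adjusted p = 0.247), H2-T22 (-0.48, SE 0.19, adjusted p = 0.288) and H2-T23 (-0.52, SE 0.22, adjusted p = 0.314). DESeq2 called 0, and so did the likelihood ratio test. The spread in this set includes the difference between its ages, which cannot be told apart here.

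Whether the genotype difference varied between sets was tested by the interaction of genotype and set. No member passed, while 0.0482% of all genes did. At p under 0.05 there were 2640 of 20763 genes and 5 of 35 members, led by H2-T22 (adjusted p = 0.2995 by edgeR's quasi-likelihood test). The likelihood ratio test called 0 members as well. The differences of H2-K1 were -1.76 at 8 weeks, 0.05 at 10 weeks and -0.40 at 5 or 30 weeks (interaction adjusted p = 0.399). The differences at single ages were therefore not shown to differ from each other.

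Other genes of antigen presentation were counted as a list. Of 24 genes for peptide transport, trimming, the immunoproteasome, class II regulators and lysosomal proteases, 0 passed over all sets by edgeR's quasi-likelihood test, 7 had lower levels with p under 0.05 (among them the peptide transporter Tap1 and the immunoproteasome subunits Psmb8 and Psmb9) and 1 had a higher level. Without WT mouse 1 of 8 weeks, 1 gene had a lower and 1 a higher level with p under 0.05. At 8 weeks 18 of the 24 genes fell, 7 of them with p under 0.05, and the list's median difference was -0.27. Past the threshold 2 rose and 0 fell. Rfxap, a subunit of the RFX complex that binds the X box, rose by 0.33 on the log2 scale, and the protease Lgmn by 0.30. Without WT mouse 1 the list's median at this age was 0.02, and 4 genes rose and 2 fell with p under 0.05. In that fit the adjusted p of Rfxap was 0.148 and that of Lgmn 0.0684. The interferon response genes Cxcl9 and Cxcl10, chemokines that draw T cells, fell by 3.37 and 2.23 over all sets, and 11 of the 15 genes of that list had p under 0.05, all lower. Without WT mouse 1 of 8 weeks, the differences of Cxcl9 and Cxcl10 were -2.89 (adjusted p = 0.0716) and -1.97 (adjusted p = 0.0569), and 8 genes of the list had p under 0.05. All 7 tested T and NK cell genes had p under 0.05 in the same direction, as did 5 of 6 B cell genes, with 0 past the threshold in both lists by edgeR's quasi-likelihood test, and without that mouse the counts were 6 and 3. In the interferon, T and NK cell and B cell lists WT mouse 1 of 8 weeks had the highest sum.

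Neighbours on chromosome 17 were used to see whether position went with the pattern. Between the first and last H2- gene lie 246 other genes, leaving out olfactory receptors, of which 113 could be tested. Over all sets 1 of the 113 passed, the macrophage gene Aif1 (log2 difference -0.65, adjusted p = 0.0695), where 1.97% of all genes did. The next neighbours by p were Ltb, Ubd, Psmb8 and Vwa7. Without WT mouse 1 of 8 weeks the adjusted p of Aif1 was 0.121, and of 116 neighbours tested 1 passed, Gm8750 (log2 difference -4.23, adjusted p = 0.0253), which was lower in iRhom2-/- mice. Of all 21157 genes in that fit, 174 were higher and 160 lower past the threshold. At 8 weeks 7 of 104 rose, namely Gabbr1, Csnk2b, Ppp1r11, Flot1, Abhd16a, Rxrb and Ppp1r10, and 0 fell. Of all 19335 genes tested at that age, 626 rose and 336 fell past the threshold. Without that mouse 2 of 104 passed, Abhd16a and A930015D03Rik, both higher in iRhom2-/- mice. Of all 19769 genes in that fit, 398 were higher and 324 lower. The median difference of these neighbours was 0.03 over all sets and 0.03 at 8 weeks, where that of the members was -1.39.

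Ratios between members within a mouse cancel what moves all of them together, and were used to look for haplotypes. H2-D1 over H2-K1 (ratio of CPM) lay between 0.702, in WT mouse 1 of 8 weeks, and 1.14. H2-Ab1 over H2-Aa lay between 0.943 and 1.21 in 23 mice and was 0.552 in WT mouse 8 of the 5 or 30 week set. In that mouse B2m over H2-K1 was 1.39, where it was at most 1.07 in the others, and H2-Eb1 over H2-Aa was at its lowest, 0.804. H2-T22 over H2-T23 ran from 0.459 to 0.892 and H2-Q6 over H2-Q7 from 0.587 to 1.15. For H2-Q6 over H2-Q7 the widest gap between neighbours was 0.19 on the log2 scale, with 5 mice below it, and for the other pairs named it had 1 mouse on one side. Over all 24 mice, WT and iRhom2-/- mice overlapped in each ratio. Within the mice of 8 weeks they did not overlap for H2-Q6 over H2-Q7 (0.708 to 0.893 in WT and 0.931 to 1.15 in iRhom2-/- mice) or for H2-Eb1 over H2-Aa (0.876 to 0.980 and 0.996 to 1.03). In the other sets the genotypes overlapped in both ratios. So few mice can separate by chance when several ratios and sets are looked at, and the separation was not tested.

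**Figure D4:**
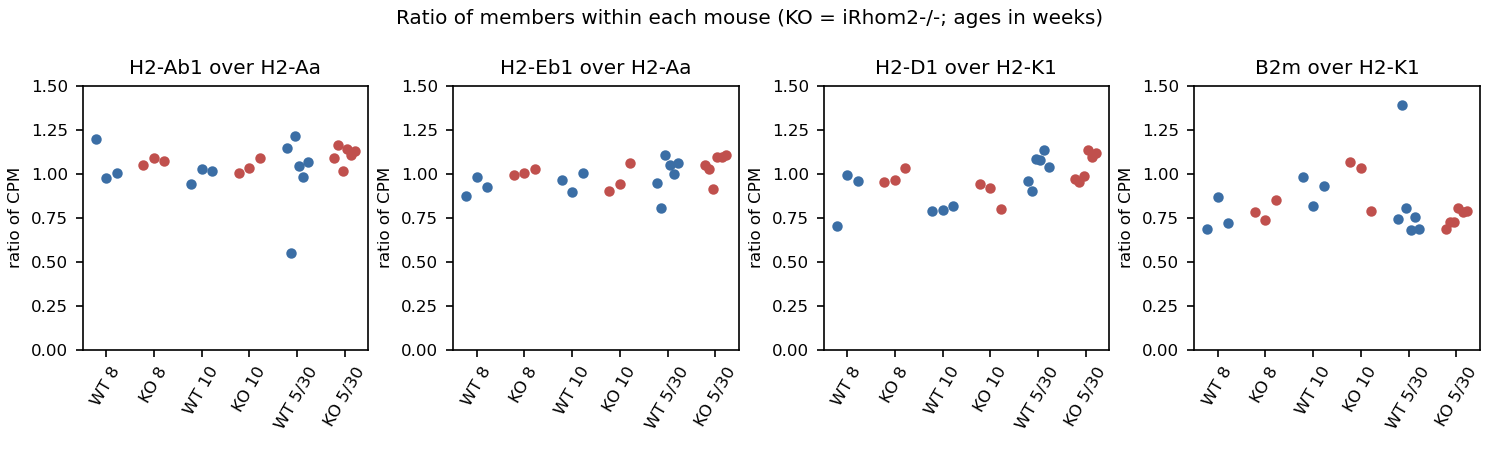
Ratios of CPM between pairs of members within each mouse, with 1 point per mouse by set and genotype. H2-Ab1 over H2-Aa is 0.552 in WT mouse 8 of the 5 or 30 week set and at least 0.943 in the other 23.

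Levels that fall into separate ranges among mice were then searched for directly. For each tested gene the mice were put in order and the widest gap with at least 5 mice on both sides was measured on the log2 scale. The median gap was 0.24 over the 32 tested H2- members and 0.14 over all genes, and the widest of a member was 0.67 (H2-M10.5), followed by H2-Q1 (0.64), both near the detection limit. Between genotypes over all sets H2-M10.5 differed by -0.63 (SE 0.79, adjusted p = 0.824) and H2-Q1 by -0.20 (SE 0.72, adjusted p = 0.951). Other genes of the interval had wider gaps, with 1.96 for Gm20463 and 1.70 for Gm20547. A930015D03Rik (chr17:35994453-36038435, plus strand), an antisense transcript that overlaps H2-T24, H2-T23 and H2-T22 on the other strand, had a gap of 0.84. It was chosen after its values were seen, for its place among the T region members.

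A930015D03Rik was at 3.73 to 7.00 CPM in 10 mice and at 0 to 2.05 CPM in the other 14. The 10 were all 3 WT mice and iRhom2-/- mouse 3 of 10 weeks, all 3 iRhom2-/- mice of 8 weeks, and iRhom2-/- mice 10, 11 and 12 of the 5 or 30 week set. These ranges are not groups of the study. At 8 weeks they coincide with genotype, so that for these 6 mice genotype and this split cannot be told apart, while at 10 weeks all 3 WT mice and 1 of 3 iRhom2-/- mice were in the higher range.

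Of 20763 genes tested, 17 put the same 10 mice apart from the same 14 without overlap, and 9 of the 17 (52.9%) were on chromosome 17, which holds 4.68% of the tested genes. The split was set by a gene of chromosome 17 chosen after its values were seen. The share on chromosome 17 is therefore a description, and was not tested. Nor are the 17 separate observations, since Rnf151 ends at 24718063, next to the start of Rps2 at 24718116. Among the 9, only A930015D03Rik, which set the split and is itself counted, lies between the first and last H2- gene. Olfr138 starts beyond the last, at position 38261035, and the others lie outside the complex, from 17121415 (Zfp97) to 26090337 (Decr2). The 17 include Rps2, a ribosomal protein gene, which was at 30.6 to 49.7 CPM in the 7 iRhom2-/- mice among the 10, at 221 to 299 CPM in the 3 WT mice among them and at 399 to 787 CPM in the 14. Rnps1, a splicing factor gene, was at 22.6 to 32.6, 61.8 to 73.7 and 75.2 to 131 CPM in the same mice. The copies Rps2-ps10 and Rnps1-ps, on other chromosomes, were higher where Rps2 and Rnps1 were lower, and reads of near-identical copies could have been split between them by the counting. No member was among the 17. The nearest were H2-M3, at 1.21 to 2.39 CPM in the 10 and at 2.12 to 10.7 CPM in the 14, and H2-T22, at 19.1 to 27.7 CPM and 24.4 to 81.4 CPM. H2-D1 was at 112 to 174 CPM and 138 to 792 CPM, and so overlapped more. The reads of H2-T22 and A930015D03Rik come from opposite strands of a shared stretch of 1308 bases, and the library was directional. Whether the 10 and the 14 mice carried different H2 haplotypes was not tested, since the counts hold no alleles.

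**Figure D5:**
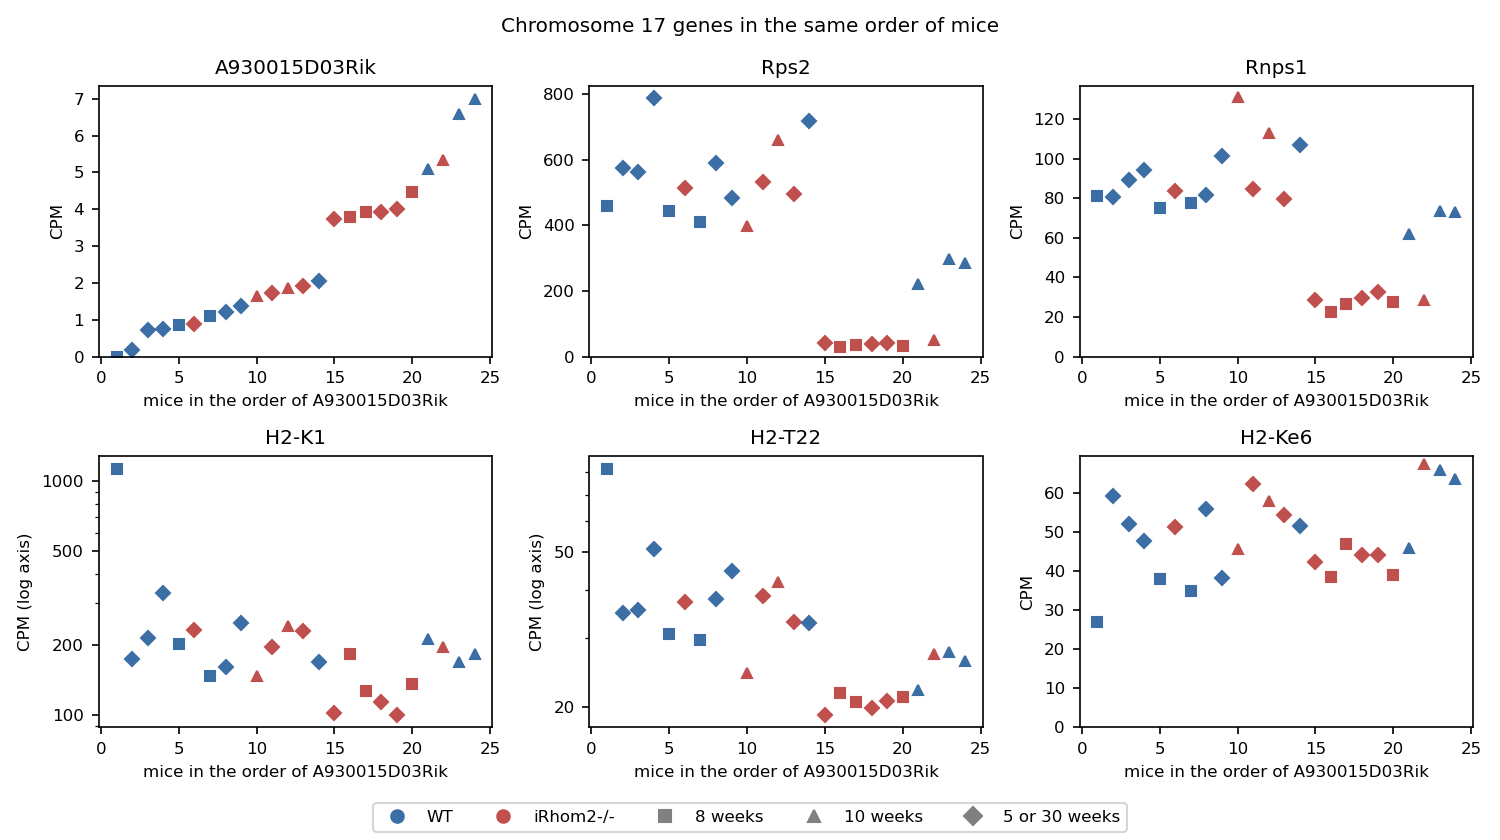
Levels of A930015D03Rik, Rps2, Rnps1, H2-K1, H2-T22 and H2-Ke6 in CPM, with 1 point per mouse by set and genotype and the mice along each horizontal axis in the order of A930015D03Rik. A930015D03Rik splits into 10 mice at 3.73 to 7.00 CPM and 14 at 0 to 2.05 CPM, while H2-T22 overlaps between the same mice, at 19.1 to 27.7 and 24.4 to 81.4 CPM.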

How the data were processed

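Bulk RNAseq was made from the OE of 24 mice. The authors ran nf-core, aligned reads with STAR to GRCm38 and estimated expected counts per gene with RSEM, and their deposited table holds these expected counts as whole numbers without normalization. It also holds fold changes and p-values of the authors' own comparison, which were not used. Unmapped count columns numbered 0. The members, lists and tests were chosen with earlier results of these data known. Full statistics were given for members past a threshold, for classical, DM and DO genes and for members with wide gaps. Other genes were named by counts, smallest p, or after their values were seen.

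Genotypes were compared by edgeR 4.0.16 under R 4.3.3 (filterByExpr, TMM, quasi-likelihood test, Benjamini-Hochberg over all genes tested, threshold 0.1). CPM are TMM-normalized, 3 counts, the limit that a count of 0 allows, are at most 0.112 CPM, and per-length values use the union of exons. DESeq2 1.42.0 and other settings were alternatives. Labels do not say that mice came from separate litters. Within groups no pair of libraries was a duplicate (chi-square per degree of freedom at least 11.6). Fits were tested on simulated counts.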

Additional observations from a re-analysis of the deposited data

Results flagged for a closer look

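Groups of 6 mice were searched for a single mouse far from the others, by the gap to its nearest neighbour as a share of the range of the group on the log2 scale (Dixon's criterion). There were 86 such tests, and chance flags about 1 in 20 groups. In the WT mice of 5 or 30 weeks, H2-T23 was at 92.6 CPM in mouse 7 (share 0.747) and H2-DMb2 at 21.3 CPM in mouse 10 (share 0.734). In WT mouse 8 of that set, H2-Ab1 over H2-Aa was 0.552 (share 0.728) and B2m over H2-K1 was 1.39 (share 0.766). Groups of 3 were not searched, so that WT mouse 1 of 8 weeks is not among these.

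For the pseudogene H2-T-ps, each iRhom2-/- mouse was above the WT mean at 8 weeks and below it at 10 weeks on the log2 scale, with mean differences of 0.74 and -0.68. The contrast between ages was not tested, the genotypes overlapped at both ages, and the gene was at most at 0.762 CPM.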

How the results depend on the processing

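Over all sets, the count of members past the threshold was 1 (Ciita) in the comparison as reported. It was 0 without a filter on low counts, 0 in the 12 mice of 8 and 10 weeks, 0 without a term for the set, 0 in male mice only and 0 with a replicate block in those 12 mice. Leaving out each mouse in turn gave 0 to 2, with Ciita and H2-Ob past the threshold without iRhom2-/- mouse 2 of 10 weeks. At 8 weeks the count of 0 became 3 with DESeq2, 7 with the likelihood ratio test, 6 with a replicate block, and 0 to 1 on leaving out each mouse, where the 1 was H2-T22 or H2-Ob. At 10 weeks and at 5 or 30 weeks no alternative called a member, and the share of members lower in iRhom2-/- mice at 10 weeks ran from 25.8% to 86.7% on leaving out each mouse. No tested member turned its direction past the threshold. The cause was not tested.

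Same-numbered mice of both genotypes correlated at 0.117, 0.0333 and 0.00374 at 8 weeks and at 0.0108, 0.216 and 0.111 at 10 weeks in their deviations from the group means, so the numbers were not read as pairs.

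Over all genes, 233 were higher and 177 lower over all sets, against 460 and 364 with DESeq2, 74 and 58 without a term for the set, 66 and 40 in the 12 mice, 26 and 15 with the block, and 133 and 109 in male mice. At 8 weeks 626 and 336 became 1172 and 1023 with DESeq2, 776 and 678 with the block and 36 and 39 without iRhom2-/- mouse 3. At 10 weeks 16 and 21 became 140 and 149 with DESeq2 and 88 and 90 with the likelihood ratio test, and at 5 or 30 weeks 120 and 78 became 532 and 384 with DESeq2. The interaction called 10 genes, 288 with the likelihood ratio test, and 0 to 204 on leaving out each mouse, a choice added after the data were seen.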
